A study of Homo sapiens with 12 samples.

Results

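The 53 genes described here encode ribosome biogenesis factors, the nucleolar and pre-ribosome assembly proteins that make ribosomes without being part of them. They were chosen by name, as a list of gene symbols matched to the Ensembl identifiers of the count tables. The list was drawn up with earlier results of these data known. Shares of the 53 set against all genes are therefore descriptions and not an independent test. All 53 were found among the 60666 genes listed, and all 53 were among the 14274 genes with enough reads to be tested. The study exposed Huh7 cells, a human hepatocellular carcinoma line, to 25 µM Molidustat dissolved in DMSO or to DMSO alone, for 24 h or for 48 h. Molidustat inhibits the prolyl hydroxylases that mark hypoxia-inducible factors (HIF) for degradation, so that HIF builds up without a lack of oxygen. Each of the 4 groups has 3 libraries, named DMSO 24 h, Molidustat 24 h, DMSO 48 h and Molidustat 48 h. The study's methods call the 3 libraries biological replicates, while its design text speaks of RNA extracted in triplicate, so that p-values may measure only the spread between extractions. Every library comes from the same cell line, which limits the results to that line.

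Ribosome assembly starts in the nucleolus, where RNA polymerase I transcribes the long precursor of the 18S, 5.8S and 28S ribosomal RNAs. Small nucleolar ribonucleoproteins (snoRNPs) modify that precursor, the small subunit processome folds and cleaves the 18S part, and separate sets of factors mature the 40S and 60S subunits until they are exported. Liver cells and tumour cells make many ribosomes, and the transcription factor MYC is known to activate many of these genes.

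The 12 libraries held between 1499273 and 9179389 counts on genes. The lowest total belonged to DMSO 48 h replicate 2, where the counting step assigned 50.4% of its reads to no feature (17.1 to 25.6% elsewhere). Its trimmed mean of M-values (TMM) scaling factor was 0.629 and at least 1.01 in each of the others, and its log2 levels correlated with those of the other libraries at 0.707 to 0.782. Levels of the 53 factors scattered around the mean of the other 11 libraries with a standard deviation (SD) of 1.42 log2 units in that library and of 0.30 to 0.68 in each of the others. Counts and medians of fold changes at 48 h are therefore given with and without it, and so are the 48 h fold changes of the factors described one by one. The label of the cells was checked against markers. All 10 hepatocyte markers were detected in each library, among them ALB (albumin), from 1264 to 5157 CPM (each count relative to its TMM-scaled library size), and AFP (alpha-fetoprotein), from 3908 to 10323 CPM. Of the fibroblast markers, THY1 was at 0 in every library and COL1A1 reached at most 0.858 CPM, while LUM reached 9.66, PDGFRA 7.45 and COL1A2 6.07 CPM. Among endothelial markers VWF, TEK and EMCN were at 0 throughout and PECAM1 reached 6.45 CPM. Among immune markers CD3E was at 0 and PTPRC (CD45) reached at most 0.577 CPM, but CD14 reached 10.3 CPM and LYZ (lysozyme) stood at 42.9 to 232 CPM in every library. The treatment was checked by genes that HIF is known to induce. They summed to 494 to 572 CPM in DMSO 24 h and to 2845 to 3752 CPM in Molidustat 24 h. The 48 h sums were 670 to 892 CPM in DMSO and 3018 to 3804 CPM in Molidustat. Of these genes EGLN3, ANKRD37 and CA9 held few reads, 377, 184 and 74 over the 12 libraries. BNIP3, which encodes a mitophagy receptor, stood at 176, 196 and 103 CPM in the DMSO 24 h libraries and at 1125, 975 and 1232 CPM in the Molidustat 24 h libraries, a log2 fold change of 2.81 (SE 0.34, Benjamini-Hochberg adjusted p = 0.000977 in the edgeR quasi-likelihood fit).

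The summed level of the 53 factors was lower in each Molidustat library than in any DMSO library of the same time. The sum was 6580.0, 6484 and 5798 CPM in DMSO 24 h and 4775, 4115 and 4856 CPM in Molidustat 24 h. The 48 h values were 6300.0, 5253 and 5729.9 CPM in DMSO and 4235, 4021 and 3775 CPM in Molidustat. The means differed by -27.1% at 24 h and by -30.4% at 48 h, or by -33.3% at 48 h without DMSO 48 h replicate 2. In bulk RNA, fewer cells of a type and less RNA per cell cannot be told apart. NPM1 made up 11.9 to 27.3% of the factors' counts, but the groups were also apart without it, at 4582 to 5115 CPM in DMSO 24 h against 3053 to 3888 CPM in Molidustat 24 h and at 4227 to 4705 CPM in DMSO 48 h against 2744 to 3168 CPM in Molidustat 48 h. The 81 cytosolic ribosomal protein genes, whose products form the ribosome itself, summed to 18922 to 28659 CPM in DMSO 24 h and to 17477 to 25140 CPM in Molidustat 24 h, and at 48 h to 16902 to 21737 CPM and 16138 to 25241 CPM, so that their groups overlapped at both times. Without MAK16 and GNL3L, which were several-fold higher in DMSO 48 h replicate 2 than in any other library, the factors summed to 4559 CPM in it, still above the 3727 to 4148 CPM of Molidustat 48 h. The sum of the factors depends on scaling in 1 library. As a plain share of the counts on genes, the factors took 0.329% in DMSO 48 h replicate 2, below the 0.392 to 0.443% of the Molidustat 48 h libraries, while the other DMSO libraries were at 0.592 to 0.710%.

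Most single factors were lower with Molidustat, few by an amount that passed the test. At 24 h the log2 fold change of Molidustat against DMSO was below 0 for 43 of the 53 factors, against 48.5% of all genes tested. Their median was -0.41 and that of all genes 0.02, and the values ran from -1.13 (NOP2) to 0.54 (RRP1B). None of the 53 was called, that is, passed an adjusted p of 0.05 together with a log2 fold change beyond 1, where 0% of all genes were called lower. DESeq2 and limma-voom with sample quality weights called 0 factors at 24 h as well, where they called 0.0746% and 0% of all genes lower. An unadjusted p under 0.05 was reached by 6 factors, all lower, against 1.52% of all genes, and 2 factors lay more than 1 log2 unit below 0, against 4.65%. In 10 factors all 3 Molidustat libraries lay below all 3 DMSO libraries, against 5.02% of all genes. These were BOP1, EBNA1BP2, NIP7, NOC2L, NOP14, NOP16, NOP2, NPM1, RRP12 and WDR12. In no factor did the Molidustat libraries all lie above.

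At 48 h the fold change was below 0 for 47 of 53 factors (49.6% of all genes), with a median of -0.77 against 0.01 for all genes. LTV1 was the only factor called, where 0.021% of all genes were called lower. A further 22 factors were lower at an unadjusted p under 0.05, so that 23 were in all, against 8.81% of all genes. In 17 factors the fold change was more than 1 log2 unit below 0 (14.2% of all genes), and in 25 the groups did not overlap (8.02%). Without DMSO 48 h replicate 2 the median at 48 h was -0.67 and 51 factors were below 0 (49.1% of 15253 genes). LTV1 was again the only factor called (0.0328%), 19 factors were lower at an unadjusted p under 0.05 (2.92%), 11 were more than 1 log2 unit below 0 (6.04%), and in 38 the groups did not overlap (15%). Leaving that library out also changed the fit at 24 h. It then gave 43 factors below 0 (47.2%), 0 called (0.0328% of all genes were called lower) and 12 lower at an unadjusted p under 0.05 (2.85%). Single values rested on few libraries. With each of the 12 libraries left out in turn, at least 1 fit changed the sign of the fold change at 24 h in 15 of the 53 factors and, with the sign kept, moved it by over 1.5 times in a further 28. At 48 h these counts were 14 and 20.

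Averaged over both times, 50 of 53 factors were below 0 (50.7% of all genes), with a median of -0.59 against -0.01. LTV1 was called (0.0701% of all genes were called lower) and 24 factors were lower at an unadjusted p under 0.05 (5.24%). Without DMSO 48 h replicate 2 the counts were 49 below 0 (47.5%), 1 called (0.125%) and 29 lower at an unadjusted p under 0.05 (4.85%). In that fit 6 factors passed an adjusted p of 0.05 (edgeR quasi-likelihood), against 0.334% of all genes that passed it on the lower side. The plot of fold changes by factor shows that the lower values were spread over all 6 role groups.

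**Figure D1:**
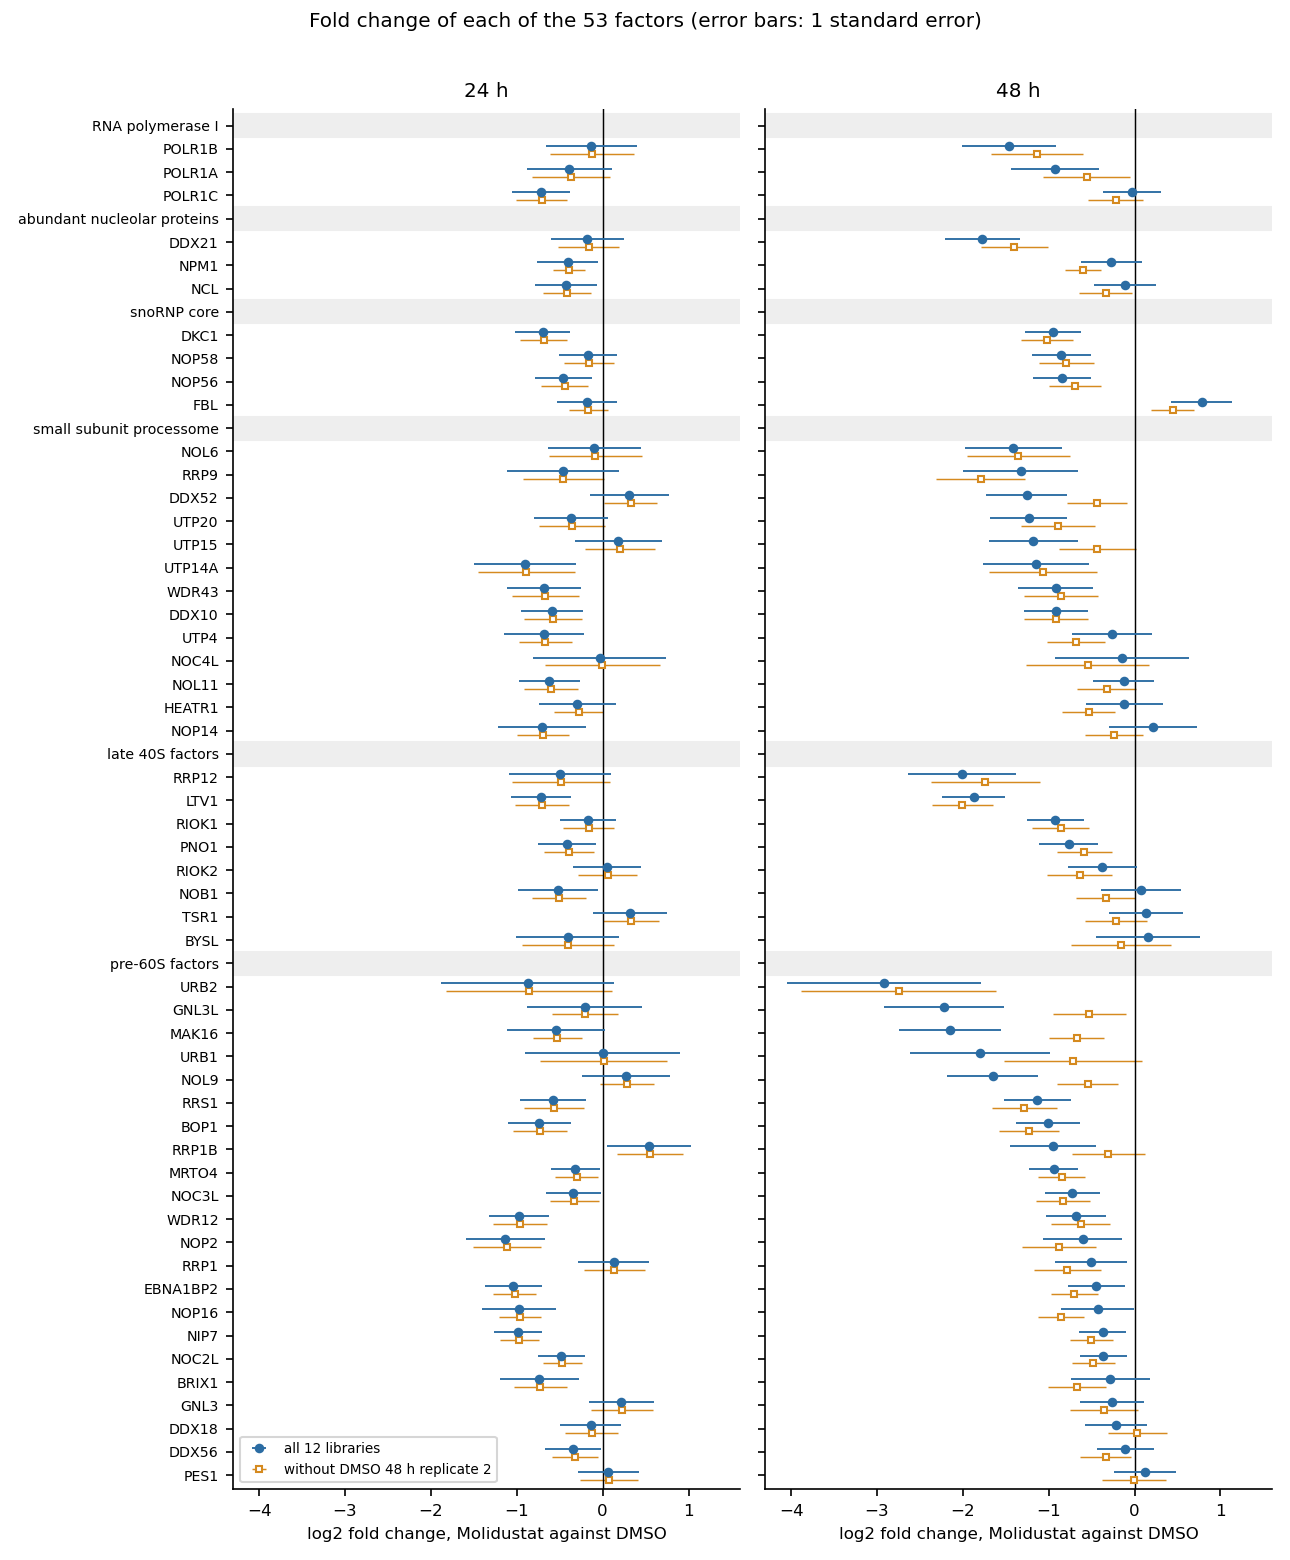
Log2 fold change of Molidustat against DMSO (horizontal axes) with its standard error for each of the 53 factors, grouped by role, at 24 h (left) and 48 h (right), with all 12 libraries (filled circles) and without DMSO 48 h replicate 2 (open squares). At 24 h 43 factors lie left of 0, at 48 h 47 with all libraries and 51 without that library, and the circles and squares of GNL3L and MAK16 at 48 h are far apart.

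RNA polymerase I was represented by 3 subunits. POLR1A and POLR1B encode its 2 largest subunits, which form the catalytic centre, and POLR1C a subunit shared with RNA polymerase III. All 3 had negative fold changes at both times and none was called. Their sum was 76.3 to 118 CPM in DMSO 24 h and 55.2 to 79.2 CPM in Molidustat 24 h, so that the groups overlapped, and 86.8 to 104 CPM in DMSO 48 h against 64.3 to 72.1 CPM in Molidustat 48 h, where they were apart. POLR1B stood at 21.0, 39.4 and 20.5 CPM in DMSO 48 h and at 9.21, 2.57 and 16.0 CPM in Molidustat 48 h, a log2 fold change of -1.46 (SE 0.55). The groups did not overlap, and without DMSO 48 h replicate 2, the highest of the DMSO libraries, the value was -1.13 (SE 0.54). POLR1A gave -0.92 (SE 0.51), or -0.56 without that library. POLR1C was nearest to 0 of the 3 at 48 h, at -0.03 (SE 0.34), or -0.22 without that library, after -0.72 (SE 0.34) at 24 h.

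The abundant nucleolar proteins were NPM1, NCL and DDX21. They summed to 1809 to 2050 CPM in DMSO 24 h and to 1383 to 1545 CPM in Molidustat 24 h. At 48 h the sums overlapped, at 1132 to 2220 CPM in DMSO and 1320.0 to 1428 CPM in Molidustat, with DMSO replicate 2 the lowest of the DMSO libraries and the others at 1875 CPM or more. NPM1 encodes nucleophosmin, a chaperone that organises the outer nucleolus. It stood at 1465, 1498 and 1216 CPM in DMSO 24 h and at 1122, 1062 and 968 CPM in Molidustat 24 h. The 48 h levels were 1595, 627 and 1502 CPM in DMSO and at 1067, 993 and 1031 CPM in Molidustat. The groups were apart at 24 h, while at 48 h DMSO replicate 2 was lower than every Molidustat library. The fold change at 48 h was -0.27 (SE 0.35), and -0.60 (SE 0.21, adjusted p = 0.479 in edgeR) without that library. The files also list 49 pseudogenes named after NPM1, with 26641 counts against 72517 on NPM1 itself, so that its counts depend on how reads were placed among near-identical copies. DDX21, an RNA helicase of rRNA transcription and processing, stood at 235, 306 and 80.8 CPM in DMSO 48 h and at 75.3, 47.2 and 57.9 CPM in Molidustat 48 h, at a log2 fold change of -1.77 (SE 0.44, adjusted p = 0.148 in edgeR), or -1.40 (SE 0.39) without DMSO 48 h replicate 2. DMSO replicate 3 lay close to the Molidustat libraries and the other DMSO libraries far above. NCL, which encodes nucleolin, gave -0.42 (SE 0.36) at 24 h and -0.11 (SE 0.36) at 48 h, or -0.34 (SE 0.31) without that library.

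The snoRNP core group holds the proteins of the box C/D particles that methylate rRNA (FBL, the methyltransferase fibrillarin, with NOP56 and NOP58) and of the box H/ACA particles that make pseudouridine (DKC1, dyskerin). Their sum was 741 to 857 CPM in DMSO 24 h and 470 to 737 CPM in Molidustat 24 h, a narrow gap, and 775 to 797 CPM in DMSO 48 h against 537 to 650.3 CPM in Molidustat 48 h. DKC1 stood at 197, 199 and 139 CPM in DMSO 24 h and at 142, 67.2 and 121 CPM in Molidustat 24 h. The 48 h libraries held 157, 118 and 112 CPM in DMSO and at 71.7, 61.3 and 67.1 CPM in Molidustat. The groups overlapped narrowly at 24 h and were apart at 48 h, where the log2 fold change was -0.95 (SE 0.32), or -1.02 (SE 0.30) without DMSO 48 h replicate 2. The paralogs NOP56 and NOP58 gave -0.84 (SE 0.34) and -0.85 (SE 0.34) at 48 h, each with groups that did not overlap, or -0.70 and -0.80 without DMSO 48 h replicate 2. FBL went the other way at 48 h, at 190, 67.1 and 171 CPM in DMSO and 271, 240 and 231 CPM in Molidustat. It was the 1 factor of the 53 whose Molidustat libraries all lay above the DMSO libraries, with a log2 fold change of 0.78 (SE 0.35, adjusted p = 0.353 in edgeR) and of 0.44 (SE 0.25) without DMSO 48 h replicate 2. At 24 h it gave -0.18 (SE 0.35).

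Of the 13 factors of the small subunit processome, which assembles on the precursor RNA as it is transcribed, 11 had negative fold changes at 24 h and 12 at 48 h (13 without DMSO 48 h replicate 2). Their median was -0.46 at 24 h and -0.92 at 48 h (-0.69 without that library). Summed over the group, the level was 614 to 745 CPM in DMSO 24 h and 418 to 593 CPM in Molidustat 24 h, and 580.2 to 643 CPM in DMSO 48 h against 366 to 417 CPM in Molidustat 48 h. NOL6, a scaffold protein of the processome, gave -1.41 (SE 0.56) at 48 h and RRP9, the U3 snoRNP-specific protein, -1.33 (SE 0.67), both at low counts. The values without DMSO 48 h replicate 2 were -1.36 (SE 0.60) and -1.79 (SE 0.52), and that of RRP9 was -0.58 without DMSO 48 h replicate 3. RRP9 stood at 19.1, 2.13 and 35.5 CPM in DMSO 48 h and at 6.52, 6.43 and 10.7 CPM in Molidustat 48 h. WDR43, a WD-repeat protein of the transcription-coupled part, gave -0.68 (SE 0.43) at 24 h, where it was -1.38 without Molidustat replicate 3 and -0.31 without Molidustat replicate 2. At 48 h it gave -0.92 (SE 0.44), or -0.86 without DMSO 48 h replicate 2. HEATR1, which links the processome to polymerase I transcription, was nearest to 0 at 48 h, at -0.12 (SE 0.45), and its lowest DMSO 48 h value, 7.45 CPM, was that of replicate 2 against 47.4 and 41.0 CPM in the others. Without that library it gave -0.54 (SE 0.31). The members not yet named, UTP4, UTP14A, UTP15, UTP20, NOL11, NOP14, NOC4L, DDX10 and DDX52, ran from -1.26 (DDX52) to 0.22 (NOP14) at 48 h, and none was called. Both ends rest on DMSO 48 h replicate 2, where DDX52 stood at 214 CPM against 56.9 and 66.9 CPM and NOP14 at 5.32 CPM against 59.9 and 39.3 CPM in the other DMSO 48 h libraries. Without it DDX52 gave -0.44 and NOP14 -0.24, and these members ran from -1.07 (UTP14A) to -0.24.

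The late 40S group holds 8 factors of the pre-40S particle. They summed to 417 to 506 CPM in DMSO 24 h and 351 to 368 CPM in Molidustat 24 h, and to 340 to 431 CPM in DMSO 48 h and 235 to 250.1 CPM in Molidustat 48 h, apart at both times. LTV1 is an export and assembly factor that keeps the head of the immature 40S subunit open until it is phosphorylated and released. NOB1 is the endonuclease that makes the 3′ end of 18S rRNA, PNO1 is its partner, RIOK1 and RIOK2 are atypical kinases, and TSR1, BYSL and RRP12 act in assembly or export. LTV1 (ENSG00000135521) lies on chromosome 6 from 143843338 to 143863812 on the plus strand of GRCh38. It stood at 110, 66.6 and 69.4 CPM in DMSO 24 h and at 37.3, 42.5 and 70.0 CPM in Molidustat 24 h. At 48 h it was at 72.7, 63.9 and 95.0 CPM in DMSO and at 16.4, 28.7 and 18.8 CPM in Molidustat, from 60 to 919 reads per DMSO library and 67 to 100 reads per Molidustat library. All 3 Molidustat 48 h libraries were below the lowest of the other 9, and at 24 h Molidustat replicate 3 lay among the DMSO libraries. Its log2 fold change was -0.72 (SE 0.35) at 24 h, -1.87 (SE 0.37, adjusted p = 0.0499 in edgeR) at 48 h and -1.30 (SE 0.25, adjusted p = 0.018) averaged over both. Without DMSO 48 h replicate 2 it was -2.01 (SE 0.36, adjusted p = 0.0129 in edgeR) at 48 h and -1.35 (SE 0.24, adjusted p = 0.00364) averaged. The difference between the 2 times was -1.16 (SE 0.50, adjusted p = 0.728 for the interaction in edgeR). The call at 48 h is close to the threshold, and its adjusted p was 0.142 when scaled by total counts, 0.0574 with at least 10 counts required in every library, 0.212 with each time fitted alone and 0.112 with the replicate number as a block. It stayed below the threshold at 0.0486 with RLE size factors and 0.000996 with no filter in edgeR, at 0.000223 in DESeq2 and at 0.000365 in limma-voom. With 1 library left out at a time it was called at 48 h in 2 of 12 fits (without DMSO 48 h replicate 1 or 2), with adjusted p from 0.0129 to 0.34 in edgeR, and averaged over both times in 6 of 12. A further gene on the same strand covers its 3′ end in the annotation, where 3′ reads fall.

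The 250 bases before the annotated start of LTV1 are shown because it was the factor called, on the plus strand of GRCh38.p14 (RefSeq) at chr6:143843088-143843337, with capitals for a match to the ETS motif CCGGAAG on the opposite strand:
LTV1: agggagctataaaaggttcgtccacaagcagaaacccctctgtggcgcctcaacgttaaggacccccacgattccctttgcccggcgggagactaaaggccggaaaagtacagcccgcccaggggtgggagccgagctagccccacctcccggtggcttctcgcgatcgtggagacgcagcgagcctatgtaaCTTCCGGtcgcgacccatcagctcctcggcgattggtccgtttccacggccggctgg

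RRP12, an export factor of both subunits, gave -2.01 (SE 0.63, adjusted p = 0.208 in edgeR) at 48 h, at 14.9, 20.2 and 8.37 CPM in DMSO and 6.07, 0.858 and 3.19 CPM in Molidustat. The groups did not overlap, but Molidustat replicate 2 rests on 2 reads, and without DMSO 48 h replicate 2 the value was -1.74 (SE 0.63). PNO1 gave -0.41 (SE 0.34) at 24 h and -0.77 (SE 0.34) at 48 h. RIOK1 gave -0.92 (SE 0.33) at 48 h and its paralog RIOK2 -0.38 (SE 0.40). Leaving out DMSO 48 h replicate 2 gave -0.58 for PNO1, -0.86 for RIOK1 and -0.64 for RIOK2. NOB1 was nearest to 0, at 0.08 (SE 0.47), with DMSO replicate 2 at 17.0 CPM against 98.4 and 65.0 CPM in the other DMSO libraries, and at -0.34 (SE 0.34) without it. TSR1 and BYSL gave 0.13 and 0.16 at 48 h, with 9.58 and 3.19 CPM in DMSO replicate 2, the lowest of the DMSO 48 h libraries for each. Without it both signs turned, to -0.22 (SE 0.36) and -0.16 (SE 0.58).

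The pre-60S group is the largest, with 22 factors, of which 16 had negative fold changes at 24 h and 21 at 48 h, with and without DMSO 48 h replicate 2. Its summed level was 2114 to 2471 CPM in DMSO 24 h and 1394 to 1705 CPM in Molidustat 24 h, and 2001 to 2256 CPM in DMSO 48 h against 1200.4 to 1461 CPM in Molidustat 48 h. The Molidustat libraries were below the DMSO libraries at both times. Of the 10 factors whose groups did not overlap at 24 h, 7 belong here. NIP7, an assembly factor of the 60S subunit, stood at 151, 154 and 151 CPM in DMSO 24 h and at 75.3, 93.6 and 61.9 CPM in Molidustat 24 h, a log2 fold change of -0.99 (SE 0.28, adjusted p = 0.325 in edgeR). At 48 h it was at 122, 95.8 and 131 CPM in DMSO and 93.0, 93.1 and 84.6 CPM in Molidustat. The groups did not overlap at either time, though the gap at 48 h to DMSO replicate 2 was narrow, with a fold change of -0.37 (SE 0.28) and of -0.50 (SE 0.25) without it. EBNA1BP2, a nucleolar factor of early 60S particles, stood at 188, 324 and 184 CPM in DMSO 24 h and at 121, 112 and 106 CPM in Molidustat 24 h, with -1.04 (SE 0.34). Its 48 h levels were 176, 83.0 and 148 CPM in DMSO and 114, 91.4 and 95.3 CPM in Molidustat, where DMSO replicate 2 lay below the Molidustat libraries and the other DMSO libraries above them. NOP16 stood at 199, 221 and 188 CPM in DMSO 24 h, at 141, 74.5 and 94.6 CPM in Molidustat 24 h, at 178, 41.5 and 184 CPM in DMSO 48 h and at 104, 106 and 92.1 CPM in Molidustat 48 h. Both times showed the same separation once DMSO 48 h replicate 2 was set aside, with -0.97 (SE 0.43) at 24 h and -0.43 (SE 0.43) at 48 h, or -0.86 (SE 0.27) without that library. BOP1, PES1 and WDR12 form one complex needed to process the 28S and 5.8S precursor. BOP1 stood at 61.9, 38.3 and 71.0 CPM in DMSO 48 h and at 23.4, 40.8 and 22.4 CPM in Molidustat 48 h, and gave -0.74 (SE 0.37) at 24 h and -1.01 (SE 0.37) at 48 h, or -1.23 (SE 0.35) without DMSO 48 h replicate 2. WDR12 gave -0.97 (SE 0.35) and -0.69 (SE 0.35), or -0.63 at 48 h without that library. PES1 was close to 0 at both times, at 0.06 (SE 0.36) and 0.12 (SE 0.36), or -0.01 at 48 h without that library.

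Averaged over both times without DMSO 48 h replicate 2, LTV1, NOP16, EBNA1BP2, NIP7, DKC1 and BOP1 passed an adjusted p of 0.05 (edgeR quasi-likelihood). The last 5 were picked out here after their values were seen, though DKC1 was also named by the rule for its role group. In edgeR their log2 fold changes were -0.91 for NOP16 (SE 0.18, adjusted p = 0.0108), -0.86 for EBNA1BP2 (SE 0.18, adjusted p = 0.0175), -0.74 for NIP7 (SE 0.17, adjusted p = 0.0279), -0.85 for DKC1 (SE 0.21, adjusted p = 0.0379) and -0.98 for BOP1 (SE 0.24, adjusted p = 0.0391), none of them, in this fit, beyond the log2 fold change of 1 that the call asks for. Other fits without that library called BOP1 averaged over both times, at -1.07 with the replicate number as a block (adjusted p = 0.037 in edgeR) and at -1.12 in limma-voom (adjusted p = 0.00357), and limma-voom called it at 48 h at -1.40 (adjusted p = 0.0101). With all 12 libraries limma-voom called it as well, at -1.11 averaged (adjusted p = 0.00431) and -1.37 at 48 h (adjusted p = 0.011). The fits that called BOP1 called 0.105% to 0.245% of all genes lower. With all 12 libraries the adjusted p of the 5 ranged from 0.136 (DKC1) to 0.405 (NOP16) in edgeR. The plot of levels by library shows how DMSO 48 h replicate 2 lay within or below the Molidustat range for NOP16, EBNA1BP2 and BOP1.

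**Figure D2:**
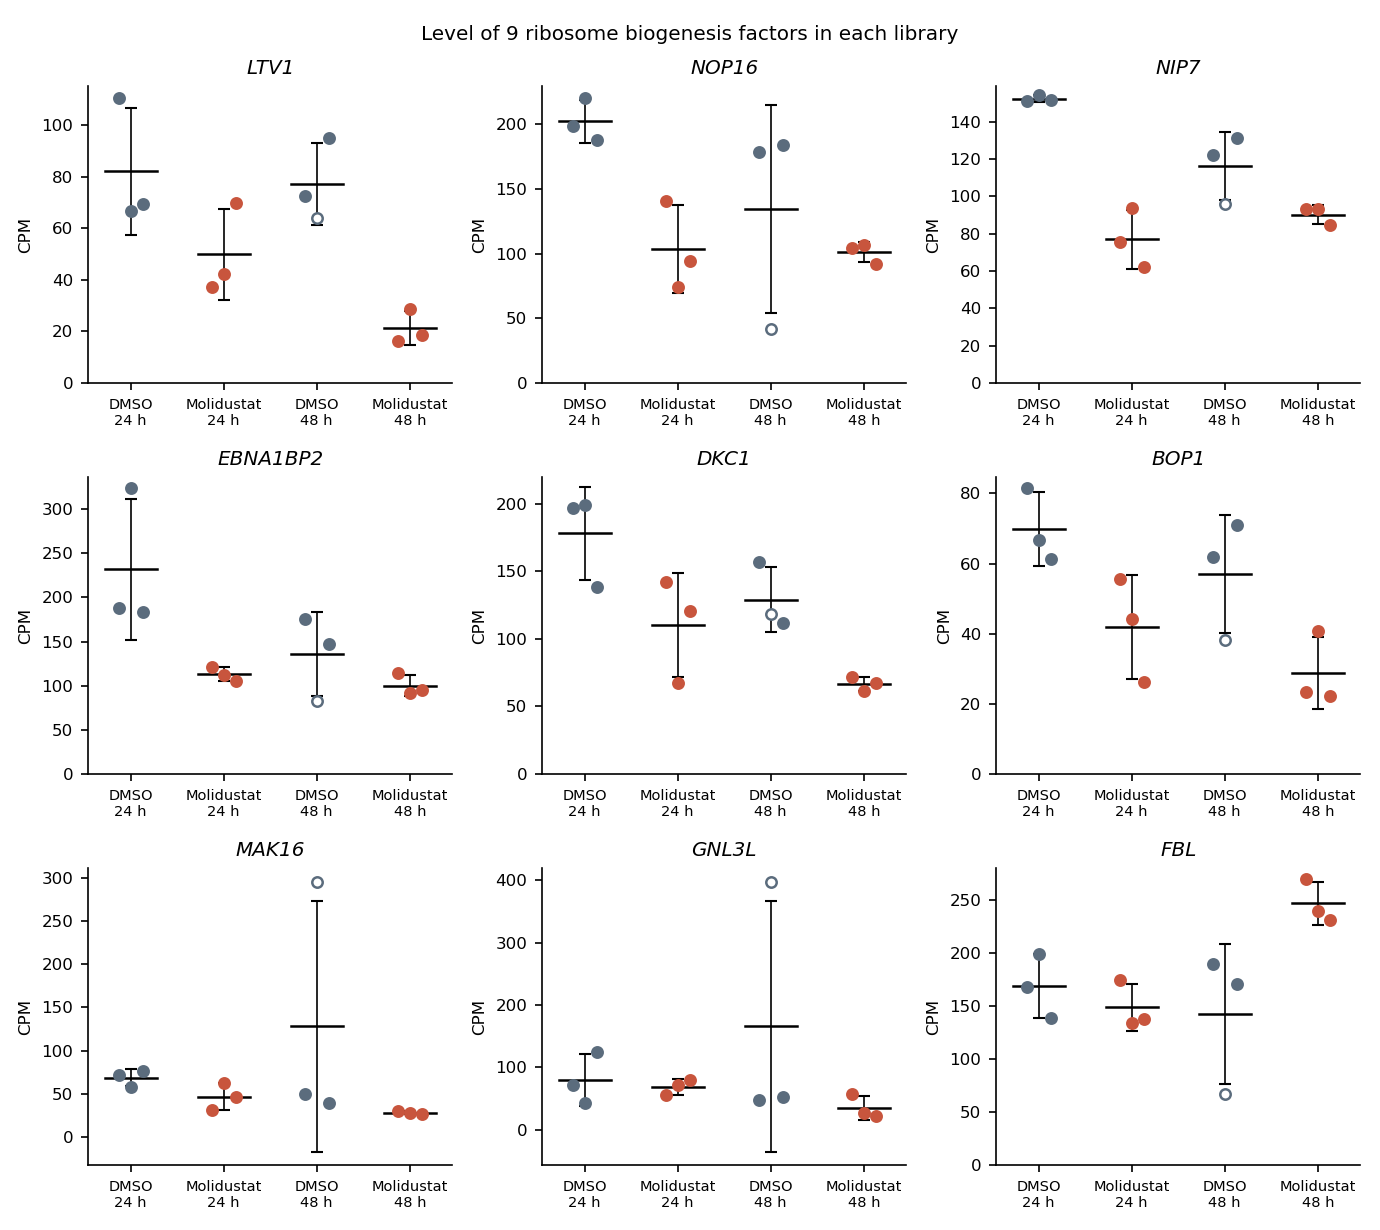
Level in CPM (vertical axes) of 9 factors in each library (points), by group, with mean and SD in black. The open point is DMSO 48 h replicate 2, which lies at 296 CPM for MAK16 and 398 CPM for GNL3L, far above all other libraries, and at 41.5 CPM for NOP16, below them.

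DMSO 48 h replicate 2 moved the values of single factors in both directions. Against the mean of the other DMSO 48 h libraries, 9 factors were higher in it by more than 1 log2 unit, 15 lower and 29 within that range, where 22.6% of all genes were higher and 32.5% lower. The other DMSO 48 h libraries differed from each other by more than 1 log2 unit in 4 of the 53 factors, against 11.9% of all genes. MAK16, a factor of early 60S particles, stood at 49.3, 296 and 39.7 CPM in DMSO 48 h and at 30.1, 27.9 and 26.5 CPM in Molidustat 48 h. GNL3L, a nucleolar GTPase, stood at 47.7, 398 and 52.0 CPM in DMSO 48 h and at 57.1, 26.2 and 21.2 CPM in Molidustat 48 h. For both, the other DMSO libraries were close to each other and replicate 2 was several-fold higher than any other of the 12. The log2 fold change of MAK16 at 48 h was -2.15 (SE 0.60, adjusted p = 0.191 in edgeR) with that library and -0.67 (SE 0.32) without it, and that of GNL3L -2.22 (SE 0.70, adjusted p = 0.208) with it and -0.53 (SE 0.43) without it. GNL3, the paralog of GNL3L that encodes nucleostemin, was not higher in that library, at 30.6, 22.4 and 24.3 CPM in DMSO 48 h, and gave -0.26 (SE 0.38), or -0.36 without that library. NOL9, URB1, DDX52, UTP15, RRP1B, DDX21 and POLR1A were the other factors higher by more than 1 log2 unit. NOL9, a kinase of 60S precursor processing, gave -1.65 (SE 0.53) at 48 h with that library and -0.55 (SE 0.35) without it, and URB1 gave -1.80 (SE 0.81) and -0.72 (SE 0.80). At the other end RRP9, NOP14, NOC4L, HEATR1, NOB1, UTP4 and NOP16 were lower in it by more than 2 log2 units. URB2 had the lowest fold change of all at 48 h, -2.92 (SE 1.13), but rests on few reads, with 0 CPM in Molidustat 48 h replicates 1 and 2 and 2.25 CPM in replicate 3 against 8.40, 8.52 and 3.2 CPM in DMSO 48 h, and it gave -2.75 without DMSO replicate 2. Left without Molidustat 48 h replicate 3, the group was at 0 and the fitted value, -7.96, is no measure of size, and the other fits with 1 library left out reached up to -2.33. BRIX1, a factor of 60S precursor processing, stood at 604, 171 and 534 CPM in DMSO 48 h and at 361, 433 and 287 CPM in Molidustat 48 h and gave -0.28 (SE 0.46), or -0.67 (SE 0.34) without DMSO replicate 2, and DDX56, a helicase of late 60S assembly, -0.11 (SE 0.33), or -0.34 (SE 0.29). The remaining pre-60S factors, RRP1, NOC2L, NOC3L, NOP2, RRS1, DDX18 and MRTO4, ran from -1.13 (RRS1) to -0.22 (DDX18) at 48 h, and from -1.28 (RRS1) to 0.03 (DDX18) without DMSO 48 h replicate 2.

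**Figure D3:**
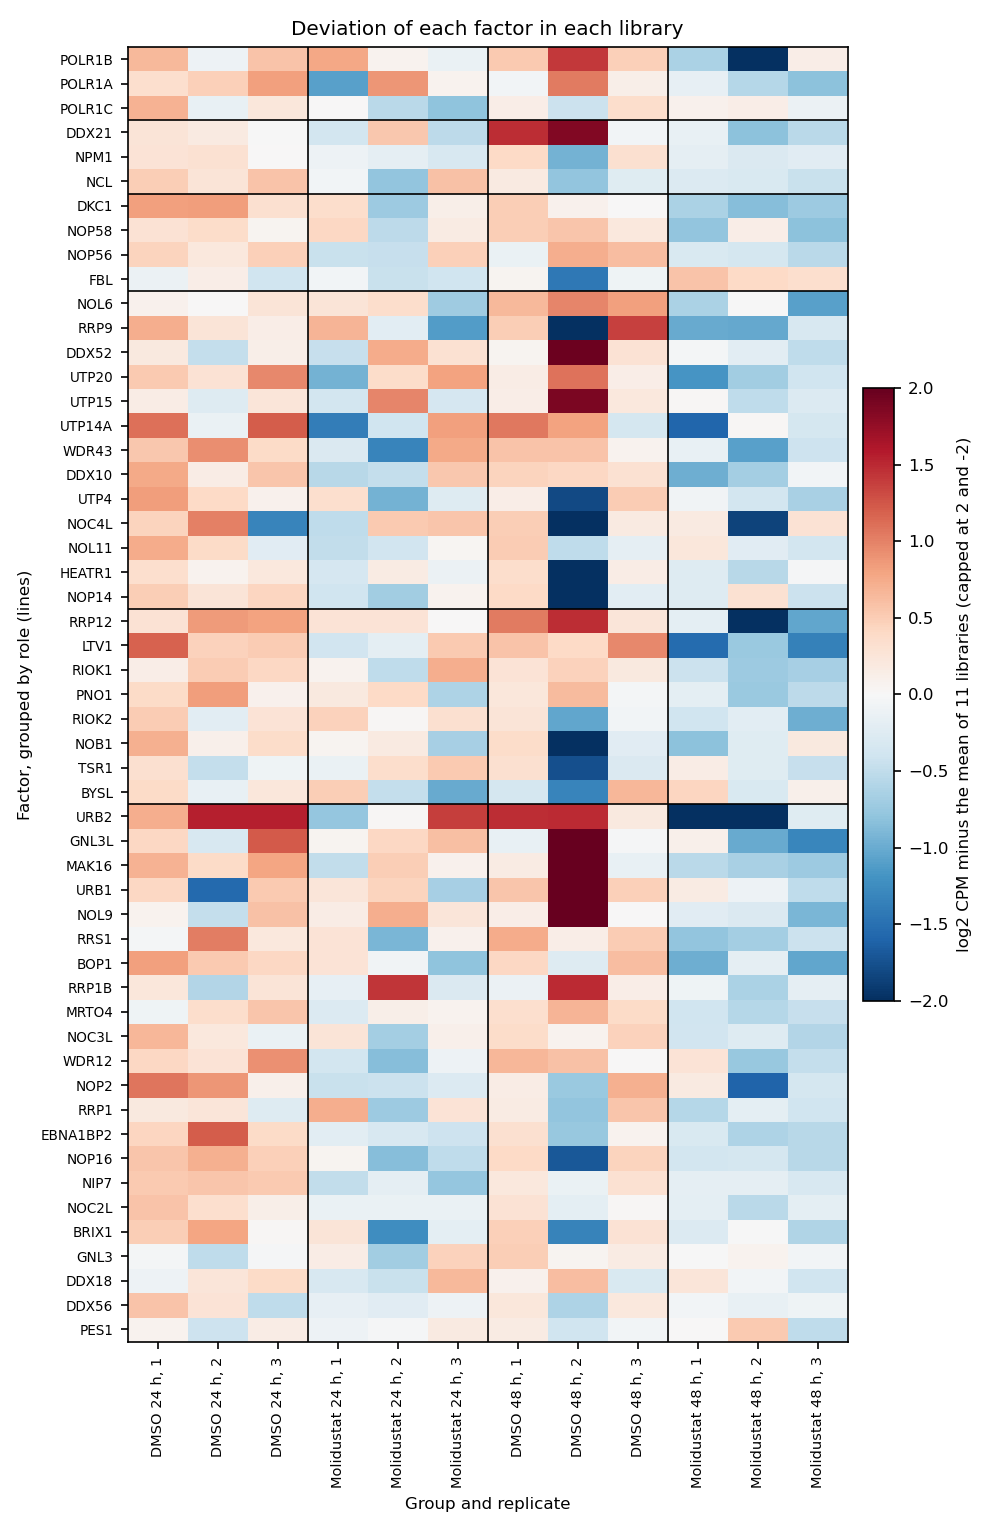
Deviation of each of the 53 factors (rows, grouped by role) in each library (columns) from its mean over the 11 libraries other than DMSO 48 h replicate 2, in log2 CPM with a prior count of 2, capped at 2 and -2. The Molidustat 48 h columns are mostly blue, with 40, 46 and 48 of 53 factors below the mean, and the DMSO 48 h replicate 2 column holds both the strongest red and the strongest blue.

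The same pattern can be read library by library. Relative to the 11-library mean, 5, 14 and 9 of the 53 factors were below it in the DMSO 24 h libraries and 30, 32 and 24 in the Molidustat 24 h libraries. In DMSO 48 h the counts were 5, 24 and 14, and in Molidustat 48 h 40, 46 and 48. In every Molidustat 48 h library more factors were below the mean than in any other library. Between the times, the factors had negative fold changes from 24 h to 48 h in 34 of 53 cases with DMSO (48.4% of all genes) and in 44 of 53 with Molidustat (50.3%), with medians of -0.16 and -0.45. By edgeR 0 factors were called in either, where 0.00701% and 0% of all genes were called lower. Without DMSO 48 h replicate 2 the DMSO count was 29 of 53 (47.6% of all genes) and the median -0.04. The change of the Molidustat effect from 24 h to 48 h was called in 0 factors and in 0% of all genes. It was below 0 at an unadjusted p under 0.05 in 4 factors (DDX21, DDX52, LTV1 and NOL9), or 7.55% of the factors against 5.6% of all genes. The fit that left out DMSO 48 h replicate 2 gave 2, DDX21 and LTV1, or 3.77% against 1.95%. Whether the effect on the factors as a group differed between the times was not tested.

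The other genes of the pathway, 120 by name of which 119 were tested, had medians nearer to 0. Their median fold change was -0.28 at 24 h and -0.21 at 48 h (-0.29 without DMSO 48 h replicate 2), with 88 and 78 below 0, where the shares of all genes were 48.5% and 49.6%. By edgeR 0 were called at either time, where 0% and 0.021% of all genes were called lower. At an unadjusted p under 0.05, 9 and 7 of the 119 were lower, against 1.52% and 8.81% of all genes, so that at 48 h their share was below that of all genes. The fit without DMSO 48 h replicate 2 gave 94 below 0 at 48 h (49.1%) and 12 lower at an unadjusted p under 0.05 (2.92%). They summed to 10054 to 10392 CPM in DMSO 24 h and to 7594 to 9112 CPM in Molidustat 24 h, and to 9732 to 13215 CPM in DMSO 48 h and 7843 to 8856 CPM in Molidustat 48 h. The sum in DMSO 48 h replicate 2, the highest, held 5459 CPM of RRP15 alone. Without RRP15 the sums were 9780.1 to 10231 CPM in DMSO 24 h and 7180.2 to 8926 CPM in Molidustat 24 h, still apart, while at 48 h DMSO replicate 2, at 7756 CPM, lay within the Molidustat range of 7693 to 8724 CPM and the other DMSO libraries, at 9596 and 9498 CPM, above it. Averaged without DMSO 48 h replicate 2, 95 of them were below 0 (47.5% of all genes) and 1, PPAN, a factor of 60S assembly, passed an adjusted p of 0.05 (-0.83, adjusted p = 0.0169 in edgeR). On the lower side 0.334% of all genes passed it in that fit. The 5 with the largest fold changes at 48 h were RRP15, RIOK3, EXOSC6, WDR36 and PAK1IP1. RRP15, a 60S factor, gave -3.68 (SE 0.99), resting on its level in DMSO 48 h replicate 2 against 259 and 235 CPM in the other DMSO libraries, and -0.69 (SE 0.46) without it. RIOK3, a kinase of the pre-40S particle, gave 1.44 (SE 0.73) and 0.99 without that library, EXOSC6, a subunit of the RNA exosome, -1.28 (SE 0.52) and -0.08 without that library, WDR36 -1.22 (SE 0.59) and 0.14 without it, and PAK1IP1 -1.17 (SE 0.36) and -0.72 without it. The cytosolic ribosomal proteins, of which 78 were tested, had medians of -0.10 at 24 h and 0.20 at 48 h, or 0.17 at 48 h when DMSO replicate 2 was left out and 79 were tested. The lists were drawn up with earlier results of these data known, so that the choice of genes may itself set them apart. The difference between the lists was not tested.

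MYC and its partners were measured beside the factors. MYC stood at 36.3, 74.3 and 58.3 CPM in DMSO 24 h and at 31.9, 64.9 and 28.8 CPM in Molidustat 24 h. The 48 h levels were 52.6, 52.2 and 51.7 CPM in DMSO and 16.0, 18.4 and 12.2 CPM in Molidustat, and the groups were far apart. Its log2 fold change was -0.42 (SE 0.37) at 24 h and -1.75 (SE 0.39, adjusted p = 0.0982 in edgeR) at 48 h. Averaged over both times it was -1.09 (SE 0.27, adjusted p = 0.0823 in edgeR) with all libraries and -1.08 (SE 0.26, adjusted p = 0.0415) without DMSO 48 h replicate 2. With 1 library left out at a time the averaged value was called in 2 of 12 fits, with adjusted p from 0.0258 to 0.263 in edgeR. MXI1, which encodes a MAX partner that opposes MYC, stood at 9.19, 12.7 and 9.09 CPM in DMSO 24 h and at 90.3, 148 and 78.1 CPM in Molidustat 24 h. At 48 h it was at 23.2, 63.9 and 31.3 CPM in DMSO and at 101, 75.9 and 117 CPM in Molidustat, so that the groups were apart at both times. It rose at 24 h by a log2 fold change of 3.36 (SE 0.43, adjusted p = 0.00112 in edgeR), and gave 1.36 (SE 0.40, adjusted p = 0.203) at 48 h, or 1.83 (SE 0.35, adjusted p = 0.0225) without DMSO 48 h replicate 2. Of the other members of the network at 48 h, MYCN gave -0.92 (SE 0.31), MAX -0.85 (SE 0.43), MXD1 -1.08 (SE 0.56), MXD3 0.38 (SE 0.35), MXD4 0.74 (SE 0.37), MNT -1.41 (SE 0.83) and MLX 0.08 (SE 0.36), and without that library MYCN gave -0.81, MAX -0.09, MXD1 0.17, MXD3 0.20, MXD4 0.45, MNT -0.18 and MLX -0.12. The part of MYC and MXI1 in the levels of the factors was not tested. The sum of the hepatocyte markers was higher with Molidustat, at 14458 to 19422 CPM in DMSO 24 h, 19900 to 27265 CPM in Molidustat 24 h, 9404 to 19293 CPM in DMSO 48 h and 28089 to 31300 CPM in Molidustat 48 h. At each time 8 of the 10 were above 0 in fold change and 2 below. At 48 h the 2 below were HNF4A, at -1.88 with 1237 CPM in DMSO replicate 2 and at -0.05 without it, and APOB, at -0.46 and -0.67. Their part in the result was not tested. Immune markers summed to 105 to 142 CPM in DMSO 48 h and 53.2 to 86.8 CPM in Molidustat 48 h, of which LYZ made up 95.4 to 98.4% and 80.6 to 83.2%, and fibroblast markers to 9.58 to 14.7 and 14.6 to 23.8 CPM, and their part was not tested either.

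Promoter sequences from RefSeq (GRCh38.p14), from 250 bases before to 50 after each annotated start, were held for 44 of the 53 factors and for 15328 protein-coding genes in all. The E-box CACGTG, the sequence that MYC and MAX bind, occurred in 16 of the 44 (36.4%) and in 8.89% of all these promoters. The core of the hypoxia response element, ACGTG on either strand, which is contained in the E-box, occurred in 22 (50%) against 23.7%, and outside an E-box in 9 (20.5%) against 16.6%. The ETS motif CCGGAAG on either strand occurred in 17 (38.6%) against 14.4%. The 16 factors with an E-box had a median log2 fold change of -0.75 at 48 h and the 28 without one -0.40 (-0.84 and -0.55 without DMSO 48 h replicate 2). The counts below 0 at 48 h went the other way, with 12 of 16 and 26 of 28 (15 and 28 without that library), the medians at 24 h were -0.44 and -0.36, and the 9 factors without a promoter sequence had a median of -1.13 at 48 h (-0.80 without that library). No difference between factors with and without an E-box was tested. No set of promoters matched to the factors for expression or base composition was compared. A match is a run of letters and does not show that a factor binds there. The 4 E-boxes that lie before the start are shown because the other 12 lie after it or across it, with the E-box in capitals, each 5′ to 3′ on the strand of its gene.
EBNA1BP2, chr1:43172782-43172820, minus strand: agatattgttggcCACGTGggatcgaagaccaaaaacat
UTP14A, chrX:129905914-129905948, plus strand: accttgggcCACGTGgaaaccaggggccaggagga
UTP20, chr12:101280075-101280104, plus strand: gcgccgttcttttttccgtcCACGTGaccc
UTP4, chr16:69132613-69132648, plus strand: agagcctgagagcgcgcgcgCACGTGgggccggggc
The E-boxes of EBNA1BP2 and UTP14A begin 237 and 241 bases before the start and those of UTP20 and UTP4 10 and 16 bases before it. At 48 h EBNA1BP2 gave -0.44 (SE 0.33), UTP14A -1.14 (SE 0.61), UTP20 -1.23 (SE 0.45) and UTP4 -0.27 (SE 0.47). The same values without DMSO 48 h replicate 2 were -0.70, -1.07, -0.89 and -0.69. In that library UTP4 stood at 25.6 CPM against 98.8 and 128 CPM. LTV1 has its E-box in the 50 bases after the start.

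Reads could not always be assigned to 1 gene. In the GENCODE annotation 36 of the 53 factors overlap another gene, 20 of them a protein-coding one, and in 18 the 3′ end, where these libraries place their reads, lies within another gene. NOP16 shares its 3′ end with ARL10 and MAK16 with TTI2, both on the opposite strand, and NIP7 with genes on the opposite strand as well. Other factors with such a neighbour on the opposite strand were POLR1C, UTP14A, NOP14, DDX52, PNO1, NOB1, TSR1, RIOK2, NOC2L, URB1 and GNL3. HEATR1 and RRS1 had genes there on both strands, and LTV1 and UTP4 on the same strand only. The strand setting of the counting is not given in the sources used here, so that reads of such neighbours could not be told apart. The values of the 18 factors are uncertain to that degree. For LTV1 and UTP4 the strand setting would not separate the reads, as the neighbour lies on the same strand. The 3′ ends of DKC1 and GNL3L lie in no other gene.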

How the data were processed

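Libraries were made with the QIAseq UPX 3′ kit, which reads the 3′ ends of transcripts, and sequenced on a NextSeq 500. Per the labels and the study's methods, the authors demultiplexed with bcl2fastq 2.17.1.14, trimmed with cutadapt 1.9.1, aligned with STAR 2.7.9a to GRCh38, and deposited raw HTSeq 0.11.2 counts per gene for each of the 12 libraries. They tested with DESeq2 1.26.0. The annotation release, the strand setting and the use of molecular identifiers in counting are not given in the sources used here. Reads without identifiers are not independent molecules.

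The 5 summary lines of each file were left out of library sizes. Of 60666 genes listed, 60437 took a name from GENCODE 44. Genes with too few reads were removed by filterByExpr (minimum count 10), which left 14274, or 15253 without DMSO 48 h replicate 2. Groups came from the labels. All 12 libraries entered 1 edgeR 4.0.16 quasi-likelihood fit (R 4.3.3, TMM scaling, no replicate block), with p-values adjusted over all genes by Benjamini-Hochberg. A call required both an adjusted p below 0.05 and an absolute log2 fold change above 1. Tests were also run with DESeq2 1.42.0 and limma 3.58.1 (voom). On simulated data with 200 of 14274 genes changed by 2 log2 units, edgeR recovered 44% at 24 h with 0 false calls and 46% at 48 h with 7, DESeq2 48.5% with 12 and 48% with 31, and limma-voom 37% with 2 and 37% with 1. All simulated libraries were drawn from 1 common profile, so that none stood apart as DMSO 48 h replicate 2 does. The rates therefore do not hold for smaller changes or for data with such a library.

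The 53 genes, the other gene lists and the tests were chosen with earlier results of these data known. Values were given for LTV1, MAK16 and GNL3L, for each factor called, and in each role group for the 2 largest fold changes at 48 h, the one nearest 0 and the highest mean CPM, with paralogs in the list. Of the other pathway genes, those called and the 5 largest at 48 h were named, and all tested MYC network genes. The further factors described (BOP1, BYSL, DDX18, DDX52, EBNA1BP2, NIP7, NOL9, NOP2, NOP14, NOP16, PES1, RIOK1, RIOK2, RRP1B, RRS1, TSR1, URB1, UTP4, UTP14A, UTP20, WDR12 and PPAN among the other pathway genes) were added after their values were seen. Alternatives were other scalings, filters, tools, a fit of each time alone, a replicate block and leaving out each library.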

Additional observations from a re-analysis of the deposited data

How the results depend on the processing

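At 48 h, where LTV1 alone was called, the number of factors called was 0 when scaled by total counts, with at least 10 counts required in every library (which tests 43 factors), with each time fitted alone and with the replicate number as a block. In that order these fits called 0.014%, 0.0132%, 0% and 0% of all genes lower. The number was 5 with no filter, 5 with DESeq2 (DDX21, GNL3L, LTV1, MAK16 and RRP12) and 3 with limma-voom (BOP1, LTV1 and RRS1), fits that called 2.15%, 1.44% and 0.238% of all genes lower. Averaged over both times it was 3 with no filter (0.672% of all genes) and 3 with limma-voom (0.245%). Further combinations were added after seeing the data, each without DMSO 48 h replicate 2. DESeq2 then called LTV1 alone at 48 h (0.165% of all genes were called lower) and averaged, 1 factor at 24 h (EBNA1BP2) and 1 from 24 h to 48 h of Molidustat (LTV1), limma-voom 1 at 24 h (NIP7), 3 at 48 h and 2 averaged, and the replicate block 0 at 48 h and 2 averaged, where between 0.0131% and 0.307% of all genes were called lower. Same-numbered libraries correlated between -0.09 and 0.14 in their deviations from the group means, and differently numbered ones between -0.16 and 0.14. No shared effect of the replicate number was seen. Whether the numbers mark paired cultures cannot be told from this. With 1 library left out at a time, 0 to 3 factors were called at 48 h and 0 to 2 averaged. These fits called 0% to 1.82% of all genes lower at 48 h and 0.00673% to 0.125% averaged. The 3 (GNL3L, LTV1 and MAK16) came without DMSO 48 h replicate 1, where 1.82% of all genes were called lower (0.021% with all libraries). Without DMSO 48 h replicate 3, DDX21 and MAK16 were called in both in place of LTV1, where 1.02% at 48 h and 0.121% averaged were called lower. Scaling by total counts moved the median of all genes at 48 h by 0.13 log2 units and that of the factors to -0.59. The causes were not tested.

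Some log2 fold changes changed sign, among them WDR36 and MXD1 at 48 h from -1.22 and -1.08. POLR1C at 48 h gave 0.070 by total counts and 0.021 with at least 10 counts in every library. Under limma-voom at 48 h NOB1 gave -0.15, WDR36 0.056, MXD1 0.18 and MLX -0.033. For MAX, log2 fold change at 24 h was -0.036 by total counts, -0.0076 with the replicate block and -0.0043 under limma-voom, and MNT at 24 h gave -0.026 with the replicate block. With 1 library left out, the values at 24 h ran from -0.51 to 0.26 for GNL3L, -0.44 to 0.032 for POLR1B, -0.60 to 0.0043 for DDX21, -0.38 to 0.055 for NOP58, -0.31 to 0.18 for NOL6, -0.068 to 0.49 for GNL3, -0.087 to 1.07 for RRP15, -0.016 to 0.29 for EXOSC6, -0.13 to 0.70 for WDR36, -0.015 to 0.26 for MYCN, -0.098 to 0.13 for MAX and -0.29 to 0.64 for MNT. At 48 h they ran from -0.22 to 0.15 for POLR1C, -0.34 to 0.15 for NCL, -0.54 to 0.22 for HEATR1, -0.34 to 0.59 for NOB1, -0.34 to 0.020 for DDX56, -0.67 to 0.012 for BRIX1, -1.59 to 0.14 for WDR36, -1.44 to 0.17 for MXD1 and -0.16 to 0.27 for MLX.

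Depth limits single factors most in DMSO 48 h replicate 2, where 7 factors had under 10 counts, and in Molidustat 48 h replicate 2, where 5 did.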
